A study of Sus scrofa with 21 samples.

Results

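The interferon regulatory factors (IRFs) were examined in whole blood of DD and LW pigs at 60 days of age. Probes of a custom porcine microarray were taken when their gene name in the scanner files was that of IRF1, IRF2, IRF3, IRF4, IRF5, IRF7, IRF8 or IRF9. The rule found 15 of the 60305 probes on the array, and they belonged to 6 of the 8 listed genes. IRF4 and IRF8 were not analysed here. The DD pigs were SLAdd minipigs, an inbred line kept homozygous at the swine leukocyte antigen (SLA) locus, and the LW pigs were of the Large White breed. Blood was drawn into PAXgene tubes from 10 DD pigs, born in 5 litters, and from 11 LW pigs, born in 6. Both breeds received the same standard diet freely, so that breed was the labelled difference between the groups. All DD pigs came from a single closed herd, which means that breed, SLA haplotype and herd could not be told apart. Up to 2 siblings per sow were sampled, and each pig was measured once.

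IRFs are transcription factors that share an N-terminal DNA-binding domain and bind interferon-stimulated response elements. IRF3 and IRF7 wait in the cytoplasm, are phosphorylated by the kinases TBK1 and IKBKE after sensors detect foreign nucleic acid, and then switch on the interferon genes. IRF7 is itself induced by interferon in most blood cells and is held at a high level in plasmacytoid dendritic cells. IRF5 acts downstream of the adaptor MYD88 in monocytes, dendritic cells and B cells. IRF9 acts on genes with these elements once the interferon receptors have been engaged. IRF1 activates, and IRF2 mostly represses, genes with the same response elements.

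The members were read by 60-base probes, and 5 of these are shown because the results below turn on them. A_72_P077861 and O9025 are 2 of the 3 probes named IRF7, all of which were called between the breeds. The IRF3 probes A_72_P165194 and A_72_P442884 read an upstream and a downstream stretch of the same transcript, and the IRF2 probe A_72_P151136 did not follow the IRF2 probe A_72_P371228 from pig to pig. Capitals mark a stop codon that closes the reading frame of the probe.
IRF7 A_72_P077861: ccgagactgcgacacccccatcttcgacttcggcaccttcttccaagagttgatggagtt
IRF7 O9025: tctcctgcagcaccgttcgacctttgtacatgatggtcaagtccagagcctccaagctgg
IRF3 A_72_P165194: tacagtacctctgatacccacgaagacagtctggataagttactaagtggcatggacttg
IRF3 A_72_P442884: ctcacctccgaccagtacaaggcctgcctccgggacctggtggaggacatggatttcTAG
IRF2 A_72_P151136: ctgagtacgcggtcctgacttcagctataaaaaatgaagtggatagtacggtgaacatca
By the scanner annotation, A_72_P077861 starts at base 1353 of its IRF7 transcript, A_72_P165194 at base 387 and A_72_P442884 at base 1200 of the IRF3 transcript, and A_72_P151136 at base 482 of an IRF2 transcript. No position is given for O9025. The strand that it reads was not checked here, and it may not be that of the IRF7 transcript. Some probes had a duplicate of the same sequence under another name. O10723 repeats A_72_P151136, O13583 repeats A_72_P442884, and a GenBank-derived probe outside the naming rule repeats A_72_P077861. The IRF7 duplicates differed by at most 0.14 log2 units on any array, and the IRF3 duplicates by at most 0.30.

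Values are log2 fluorescence intensities, deposited after background correction and quantile normalization, and the kept probes of a gene were averaged. Levels given below were corrected for the 3 chips on which the arrays lay. Intensities of different probes are not on a common scale, so genes were not ordered by level. All 15 IRF probes passed the filter on dim probes, and all were well above background on all 21 arrays. Per array, 44.7% to 63.8% of all probes were above background by the scanner's stricter flag. The arrays of DD pigs were dimmer. Brightness, taken as the log2 75th percentile of each array's processed signal, averaged 7.53 ± 0.54 in DD (SD, n = 10) and 8.22 ± 0.38 in LW pigs (n = 11; exact two-sided permutation of litter means, p = 0.00866). On chip 1 this difference was -0.07, on chip 2 it was -0.76 and on chip 3 it was -1.27.

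Of the 6 IRF genes measured, 1 was higher in DD pigs at an adjusted p under 0.05 and 0 were lower (limma with Benjamini-Hochberg adjustment over all genes). Among all 33326 genes tested, 11.5% were called higher and 9.63% lower in DD pigs, so that 1 of 6 is close to the background. At an unadjusted p under 0.05, 2 were higher, IRF2 and IRF7, and 0 lower, where 18.3% of all genes were higher and 18.5% lower. The unadjusted counts of the gene lists below have the same background. All 6 fitted differences were above 0, where 45.1% of all genes were. The median of the 6 was 0.16, against a median of -0.04 over all genes tested. The called gene was IRF7.

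**Figure D1:**
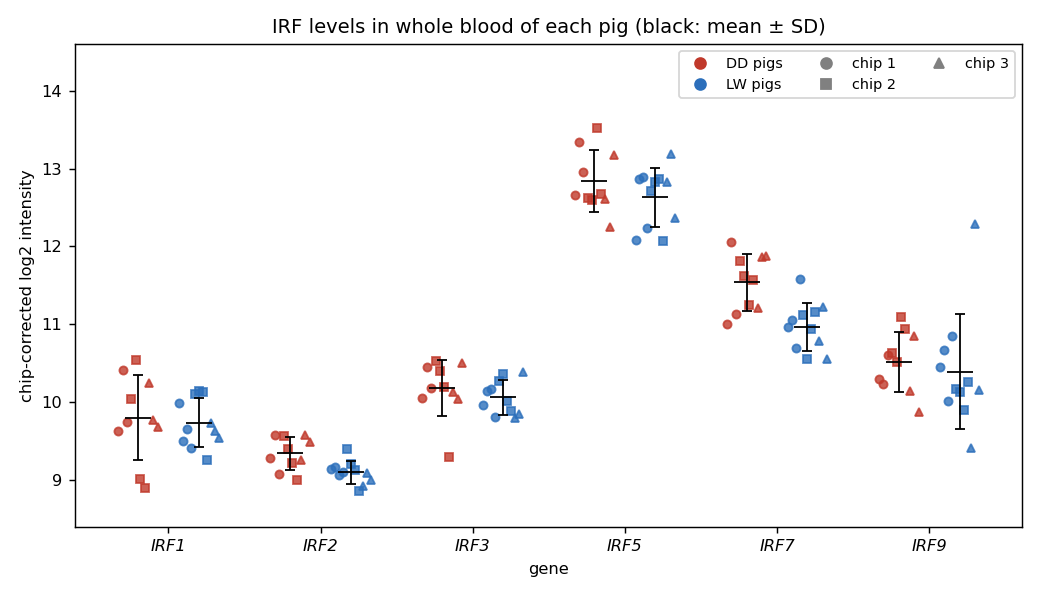
Chip-corrected log2 intensity (y axis) of 6 IRF genes (x axis) in each of 10 DD (red) and 11 LW pigs (blue), with marker shapes for the 3 chips and black bars for mean ± SD. The DD and LW points of IRF7 lie furthest apart, with all 10 DD pigs above the LW median of 10.96, while a single LW pig stands far above the others for IRF9; levels of different genes are not comparable.

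IRF7, the factor that amplifies interferon production, was 1.49-fold higher in DD pigs (95% interval 1.21 to 1.83). Its level ran from 11.00 over a median of 11.60 to 12.06 in DD pigs. In LW pigs it ran from 10.55 over a median of 10.96 to 11.58. All 10 DD pigs lay above the LW median and all 11 LW pigs lay below the DD median, but the ranges overlapped. Above the highest LW pig lay 5 DD pigs, and below the lowest DD pig lay 6 LW pigs. The log2 difference was 0.57 ± 0.15 (SE; limma, adjusted p = 0.0135), and 7.39% of all genes tested had a larger positive difference. The mean of each of the 5 DD litters, 11.39 to 11.84, exceeded that of each of the 6 LW litters, 10.56 to 11.18. Permuting the litter means (exact, two-sided) gave p = 0.00216, the smallest value that 5 against 6 litters allow.

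All 3 probes named IRF7 were higher in DD pigs. Of all probes tested, 11% were called higher. A_72_P065236 had a difference of 0.66 ± 0.20 (SE; limma, adjusted p = 0.0258), and its DD levels of 12.96 to 15.04 overlapped the LW levels of 12.62 to 13.82. For A_72_P077861 the difference was 0.57 ± 0.15 (adjusted p = 0.0135), with DD levels of 14.27 to 14.98 and LW levels of 13.40 to 14.83. On this probe 9 of 11 LW pigs lay below every DD pig, and a single LW pig, LW_07, lay above the DD median. O9025 had a difference of 0.50 ± 0.15 (adjusted p = 0.0302), with 9 of 10 DD pigs above the LW median. Its levels, 5.71 to 6.80 in DD and 5.24 to 6.38 in LW pigs, entered the IRF7 mean, although its strand was not checked. The probes did not rank the pigs alike. After removal of breed and chip means, O9025 correlated with A_72_P065236 at r = 0.79 and with A_72_P077861 at r = 0.70 over 21 pigs, but the latter 2 correlated at r = 0.35. DD_06, for example, was the highest DD pig on A_72_P065236 and O9025, while DD_21 was the highest on A_72_P077861.

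**Figure D2:**
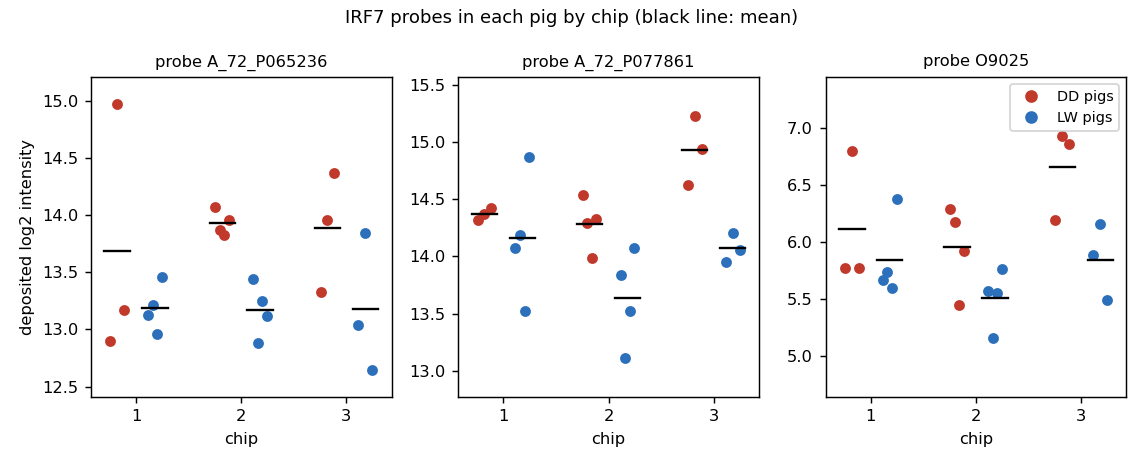
Deposited log2 intensity (y axis) of the 3 IRF7 probes (panels) in DD (red) and LW pigs (blue) on chips 1 to 3 (x axis), with black lines for group means; each panel spans the same number of log2 units. The DD mean is above the LW mean in all 9 pairs, with the least separation on chip 1.

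The IRF7 difference was seen on each chip and varied in size. The DD mean minus the LW mean was 0.32 on chip 1 (3 DD and 4 LW pigs), 0.62 on chip 2 (4 and 4) and 0.80 on chip 3 (3 and 3). The study's methods record a technical bias of the third chip. Without chip 3 the difference was 0.46 ± 0.19 (limma, adjusted p = 0.338) and without chip 2 it was 0.48 ± 0.18 (adjusted p = 0.0752), so the call did not hold, although the direction did. With array brightness as a covariate it was 0.40 ± 0.19 (adjusted p = 0.407). The probes reacted unequally to that covariate. A_72_P065236 had 0.72 ± 0.27 (limma, adjusted p = 0.218). A_72_P077861 fell to 0.17 ± 0.14 (adjusted p = 0.788) and O9025 to 0.31 ± 0.20 (adjusted p = 0.652), so none kept its call. The residuals of A_72_P077861 correlated with brightness at r = -0.78 over 21 arrays, those of A_72_P065236 at r = 0.07. On chip 1, where brightness differed least between breeds, the IRF7 difference was also the smallest, and brightness and breed could not be fully told apart on these arrays.

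**Figure D3:**
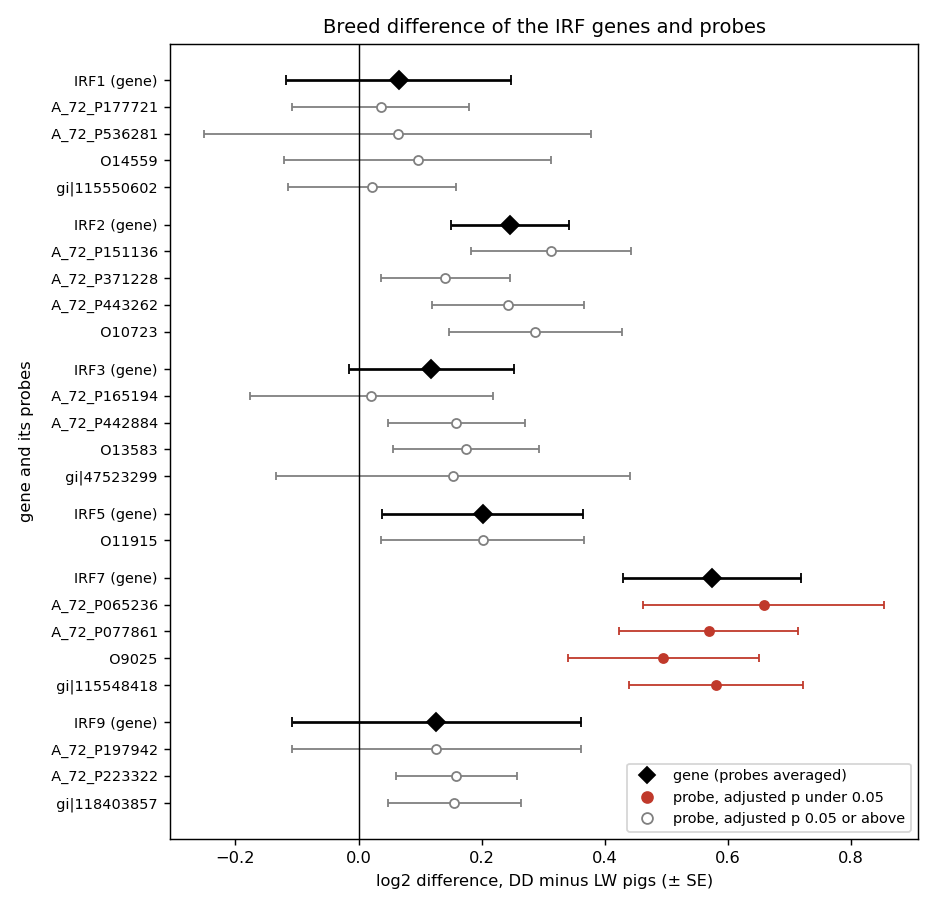
Log2 difference, DD minus LW pigs, with its SE (x axis) for the 6 IRF genes (black diamonds) and for their 15 probes by name plus 5 assigned by accession or sequence (circles, y axis), red where the adjusted p was under 0.05. The IRF7 probes, at 0.50 to 0.66, are the filled ones, and all other probes lie between 0.02 and 0.31.

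IRF3, the partner of IRF7 that is made constitutively, was not called. It ranged from 9.30 over 10.19 to 10.53 in DD pigs and from 9.80 over 10.02 to 10.39 in LW pigs. The log2 difference was 0.12 ± 0.13 (SE; limma, adjusted p = 0.545), with a 95% interval of -0.16 to 0.40, and 9 of 10 DD pigs lay above the LW median. Above all LW pigs lay 4 DD pigs, DD_16 lay below all LW pigs, and the others lay within the LW range. The probe at base 1200 showed a difference of 0.16 ± 0.11 and the probe at base 387 one of 0.02 ± 0.20. The 95% interval of IRF7, 0.27 to 0.87, overlaps that of IRF3, and the breed differences of IRF7 and IRF3 were not tested against each other.

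IRF5 had a single probe, O11915. In DD pigs it ranged from 12.25 over 12.67 to 13.52, and in LW pigs from 12.07 over 12.82 to 13.19. The mean was higher and the median lower in DD pigs, and only 4 of 10 DD pigs lay above the LW median. The difference of 0.20 ± 0.16 (SE; limma, adjusted p = 0.385) was within the spread between pigs. IRF5 also followed brightness: its residuals correlated with it at r = 0.65 over 21 arrays, and with brightness as a covariate the difference was 0.59 ± 0.18 (adjusted p = 0.0969).

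IRF9, the DNA-binding subunit of the interferon-stimulated complex, was not called either. The probe named IRF9, A_72_P197942, ranged from 9.87 over 10.56 to 11.10 in DD pigs and from 9.42 over 10.17 to 12.28 in LW pigs. The upper end was LW_22, which stood more than 1 unit above every other pig. The difference was 0.13 ± 0.23 (SE; limma, adjusted p = 0.724), and without LW_22 it was 0.35. A second IRF9 probe, A_72_P223322, which the array lists under a locus number and the RefSeq table assigns to IRF9, gave a different picture. Its DD levels were 10.20 to 10.89 and its LW levels 10.17 to 10.55, and LW_22, the highest LW pig here too, lay below 4 DD pigs. Its difference was 0.16 ± 0.10 (adjusted p = 0.245), and its residuals correlated with those of the first probe at r = 0.15 over 21 pigs.

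IRF1, an activator induced by interferon-gamma, showed no difference beyond the spread. Its DD levels were 8.90 over 9.75 to 10.54 and its LW levels 9.25 over 9.66 to 10.15, so that the DD range enclosed the LW range. The log2 difference was 0.07 ± 0.18 (SE; limma, adjusted p = 0.821), with an interval of -0.31 to 0.44. On chip 1 it was 0.29, on chip 2 -0.29 and on chip 3 0.26. The gene value averages 3 probes, whose differences were 0.04 ± 0.14 (A_72_P177721), 0.06 ± 0.31 (A_72_P536281) and 0.10 ± 0.22 (O14559). O14559 averaged 7.28 in DD and 7.18 in LW pigs, against 11.63 and 11.60 for A_72_P177721. The strand that O14559 reads was not checked, and it may not be that of the IRF1 transcript.

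IRF2, the counterpart of IRF1 on the same response elements, was nearest to IRF7 in its order of p-values. It ranged from 9.00 over 9.34 to 9.58 in DD pigs and from 8.86 over 9.10 to 9.40 in LW pigs. Above all LW pigs lay 5 DD pigs, and 8 of 10 DD pigs lay above the LW median. The difference of 0.25 ± 0.10 (SE; limma, adjusted p = 0.068) missed the threshold, while permuting the litter means exactly gave p = 0.0152, unadjusted over the members. The difference had the same sign on all chips, with 0.19, 0.15 and 0.44 on chips 1, 2 and 3. The 4 IRF2 probes had differences of 0.14 to 0.31, and the adjusted p was 0.0838 or above for each. A_72_P151136 and O10723 hold the same sequence, and both entered the IRF2 mean. With the highest probe in place of the mean, the IRF2 difference was 0.14. A_72_P151136 and its duplicate O10723 correlated at r = 0.97 over 21 pigs after removal of breed and chip means. They did not follow A_72_P371228, with r = -0.33 and r = -0.36, which in turn followed A_72_P443262 at r = 0.78.

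IRF1 and IRF3 each had probes at an upstream and a downstream position of the same transcript, and the difference between such probes varied from array to array. For IRF1, the probe at base 1576 minus the probe at base 1996 ran from -0.38 to -0.57 on the arrays of chip 1 and reached -2.71 in DD_16 and -3.26 in LW_22. The difference of the IRF3 probes, base 387 minus base 1200, ran from -3.16 in DD_01 to -4.85 in DD_16, while their residuals correlated at r = 0.77 over 21 pigs. The 3 lowest arrays were DD_16, LW_18 and LW_22 for both genes. An array-wide measure was therefore taken, the median over 1991 transcripts of the centred difference between the most upstream and the most downstream probe, for probes at least 300 bases apart and without the IRFs. It was 0.02 ± 0.17 (SD, n = 10) in DD and -0.02 ± 0.17 (n = 11) in LW pigs (exact permutation of litter means, p = 0.734). Within chips, DD minus LW arrays differed in this measure by 0.013 (chip 1), 0.0037 (chip 2) and 0.18 (chip 3). On chip 3 the DD arrays, at -0.081 to 0.0074, all lay above the LW arrays, at -0.31 to -0.12, and the IRF2 and IRF7 differences were largest on that chip too. Over the 21 arrays the residuals of the array-wide measure correlated with the IRF1 probe difference at r = 0.89 and with the IRF3 probe difference at r = 0.70, all values coming from the same arrays. For the IRF2 probe at base 482, A_72_P151136, the correlation was 0.80, and for A_72_P371228 it was -0.40. The gene-level residuals of IRF1 gave r = 0.69, of IRF2 r = 0.59, of IRF3 r = 0.53 and of IRF7 r = 0.06. With the measure as a covariate, IRF7 stayed at 0.56 ± 0.16 (limma, adjusted p = 0.0304) and IRF2 went to 0.19 (adjusted p = 0.133).

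**Figure D4:**
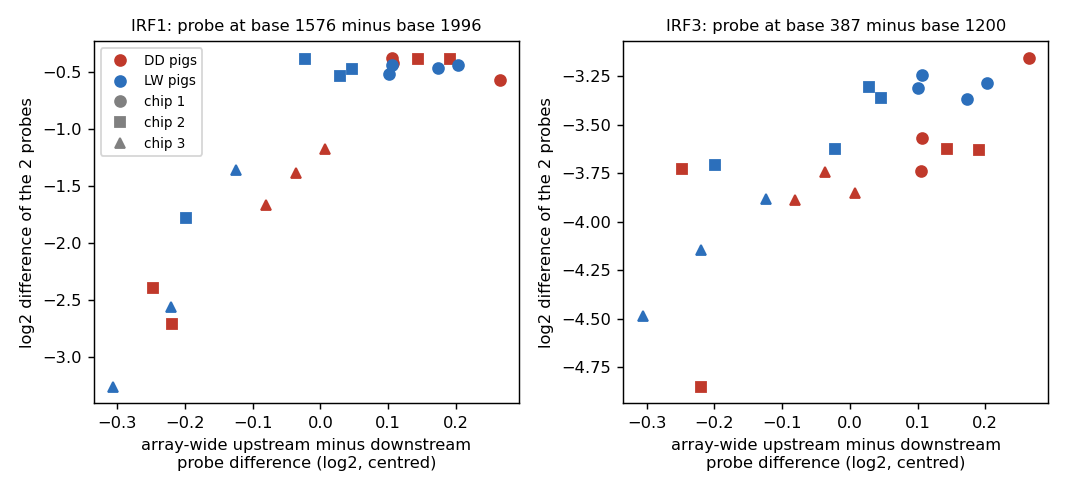
Log2 difference between an upstream and a downstream probe of IRF1 (left) and IRF3 (right) on the y axes against the array-wide upstream minus downstream difference (x axes), for 10 DD (red) and 11 LW arrays (blue), with marker shapes for chips. DD_16 and LW_22 are low on both axes in both panels, and DD_13, low on the x axis at -0.25, is low for IRF1 but not for IRF3.

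The genes around the IRFs were counted in lists drawn up with earlier results of these arrays known, so no list was tested. Of 18 sensors and adaptors, 17 were tested, 2 were higher and 0 lower in DD pigs, and the median difference was 0.08. DDX58, which encodes the RNA sensor RIG-I, lay 1.00 ± 0.30 higher (SE; limma, adjusted p = 0.0261), and TICAM2, an adaptor of TLR4, by 0.38 ± 0.12 (adjusted p = 0.0298). TLR8, an endosomal RNA sensor, had 0.41 ± 0.15 (adjusted p = 0.0504), and the adaptor TICAM1 had 0.32 ± 0.13 (adjusted p = 0.0767). At an unadjusted p under 0.05, 7 of the list were higher and 1 lower.

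None of the 9 tested kinases and scaffolds that act on IRF3 and IRF7 was called (limma; 2 at an unadjusted p under 0.05), and the median difference was -0.14. IRAK1, a kinase of the MYD88 route, had 0.32 ± 0.12 (limma, adjusted p = 0.0585) and the helicase DDX3X had -0.28 ± 0.12 (adjusted p = 0.0833). The subunits IKBKB (-0.25 ± 0.13) and CHUK (-0.20 ± 0.10) of the IkB kinase had adjusted p of 0.163 and 0.164. The interferons themselves were barely measured. Of 10 listed, only 4 had a probe of that name. Of these, 2 passed the filter and 0 were called, also at an unadjusted p under 0.05. IFNG was well above background on 19 arrays and had -0.37 ± 0.18 (adjusted p = 0.138), and IFNA1 was so on 2 arrays.

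None of the 14 tested receptors and JAK-STAT genes was called (limma; at an unadjusted p under 0.05, 1 was higher and 3 lower), with a median of 0.06. SOCS3, a feedback inhibitor of JAK kinases, had 0.35 ± 0.15 (limma, adjusted p = 0.102). IL10RB, a subunit shared by the receptors of IL-10 and lambda interferons, had -0.37 ± 0.17, IFNAR2 -0.22 ± 0.10 and JAK1 -0.34 ± 0.16, each with an adjusted p of 0.115 or above. Of 12 tested partners of the IRFs, 1 was higher and 1 lower, with a median of 0.02. ETV6, an ETS-family repressor, was higher by 0.39 ± 0.10 (adjusted p = 0.0118), and the coactivator CREBBP was lower, at -0.35 ± 0.12 (adjusted p = 0.047). SPI1, which encodes PU.1, had 0.33 ± 0.12 (adjusted p = 0.0638) and RELA 0.27 ± 0.15 (adjusted p = 0.191).

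Of 29 interferon-induced genes tested, 12 were called higher and 0 lower in DD pigs, where 11.5% and 9.63% of all genes were. A difference above 0 was found for 25 of them, against 45.1% of all genes, and the median was 0.55. IFIT1, which binds foreign RNA, exceeded its LW level by 0.82 ± 0.15 (limma, adjusted p = 0.00162), and the antiviral GTPase MX2 by 1.41 ± 0.30 (adjusted p = 0.00487). MX1 was higher by 1.47 ± 0.36 (adjusted p = 0.0116) and IFIT5 by 1.08 ± 0.28 (adjusted p = 0.0159). DDX58, IFIH1 and DHX58 are in this list as well as among the sensors and adaptors. Each is counted as higher at an unadjusted p under 0.05 (limma) in both lists. USP18 is also among the receptors and JAK-STAT genes. The differences below 0 were those of PARP9 (-0.28 ± 0.16), the GTPases GBP2 (-0.11 ± 0.23) and GBP1 (-0.084 ± 0.23), and OASL (-0.040 ± 0.31), none of them called, and the peptide transporter TAP1 had 0.020 ± 0.22. At an unadjusted p under 0.05, 17 of the list were higher and 0 lower. With brightness as a covariate, the genes called in the whole fit fell from 7030 to 713.

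**Figure D5:**
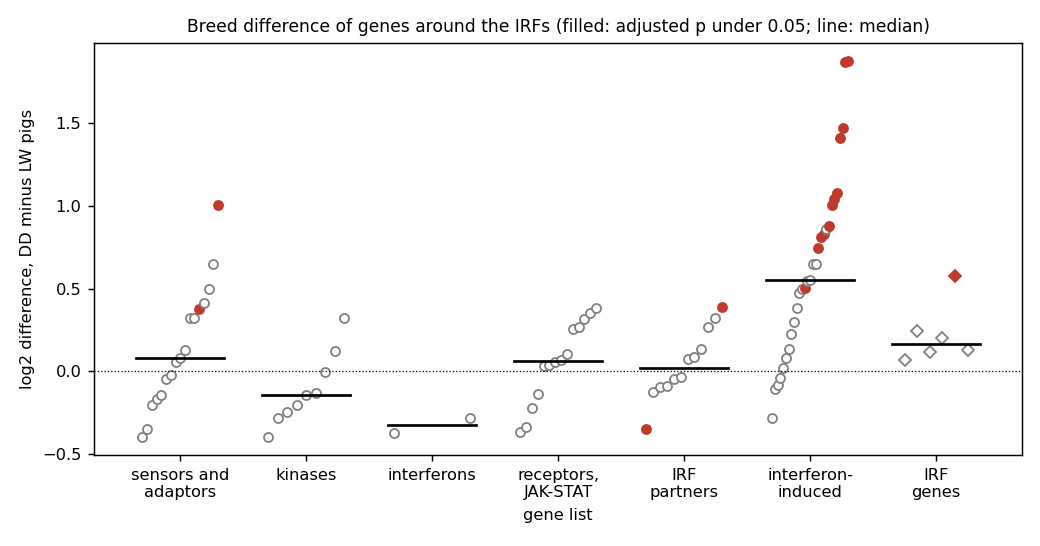
Log2 difference, DD minus LW pigs (y axis), of each gene tested in 6 lists around the IRFs and of the 6 IRF genes (x axis), filled where the adjusted p was under 0.05, with lines for medians. The interferon-induced genes have a median of 0.55 and the only list with more than 2 filled points.

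In whole blood, a lower share of a cell type and less RNA per cell cannot be told apart, so markers were read beside the IRFs. Of 9 T cell markers tested, 3 were lower in DD pigs and 0 higher, with a median of -0.38. They were CD3D (-0.58 ± 0.15), CD3G (-0.64 ± 0.14) and CD8A (-0.64 ± 0.23), with limma adjusted p of 0.0145, 0.00504 and 0.0477. Of 7 B cell markers, VPREB3 alone was called, higher by 0.81 ± 0.22 (adjusted p = 0.0181). Of 6 monocyte markers, with a median of 0.08, CD163 alone was called, at -0.72 ± 0.21 (adjusted p = 0.023). CSF1R had 0.63 ± 0.23 (limma, adjusted p = 0.0505) and FCGR1A 0.73 ± 0.34 (adjusted p = 0.124), so that 2 monocyte markers were higher and 1 lower at an unadjusted p under 0.05. None of 6 plasmacytoid dendritic, 6 neutrophil and 4 cytotoxic cell markers was called, with medians of 0.04, -0.10 and -0.37. At an unadjusted p under 0.05, 1 plasmacytoid marker was higher and 1 lower, and 0 of the neutrophil and cytotoxic markers passed. Of 2 conventional dendritic markers tested, XCR1 was higher by 0.57 ± 0.17 (limma, adjusted p = 0.0234) and CADM1 had -0.010 ± 0.20 (adjusted p = 0.977). FLT3 was not above background on any array. Of 6 erythroid markers, with a median of 0.53, ALAS2 and EPB42 were higher (0.75 ± 0.25 and 1.06 ± 0.29, limma adjusted p of 0.0375 and 0.02). AHSP (-0.27 ± 0.25) and SLC4A1 (-0.05 ± 0.24) lay below 0. The log2 summed erythroid level, which follows the brightest probes, HBB and AHSP, had a median of 18.54 in DD and 18.74 in LW pigs. Of 5 platelet markers, with a median of -0.15, PPBP was lower (-0.94 ± 0.32, limma adjusted p of 0.041), and GP9 alone lay above 0 (0.15 ± 0.14). The log2 summed level of the plasmacytoid markers was 11.94 to 13.04 in DD and 11.75 to 12.58 in LW pigs. That sum was nearly all BCL11A, which averaged 12.12 in DD and 11.73 in LW pigs. Each other tested plasmacytoid marker averaged 7.85 or less. TLR7 (-0.20 ± 0.19) and TLR9 (-0.35 ± 0.16) lay below 0, and the other 4 tested lay above it, TCF4 at 0.00057. The summed T cell markers ran from 12.11 to 13.12 in DD and from 12.61 to 13.34 in LW pigs. The part of cell composition in the IRF7 difference was not tested.

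The genes most like each IRF were sought among 7819 genes with a symbol, by Pearson correlation over 21 pigs after removal of breed and chip means. For IRF7 they were KCNMB1 (r = 0.90), PMAIP1 (r = 0.82) and CLIP1 (r = 0.82). KCNMB1, a potassium channel subunit, was itself higher in DD pigs by 1.27 on the log2 scale (limma, adjusted p = 0.000146) and PMAIP1, a pro-apoptotic BCL2-family gene, by 0.75 (adjusted p = 0.0192), while CLIP1 had 0.12 (adjusted p = 0.483). For IRF2 they were GNA11, SLC25A28 and DHX58 (r = 0.84 to 0.89), the last a RIG-I-like receptor. IRF1 ran most closely with CALCOCO2, CD38 and ARPC2 (r = 0.92 to 0.93), and IRF3 with GPANK1, MTX1 and ATP6V0C (r = 0.91 to 0.92). IRF5 ran with SLC25A43, SGSH and TRIM41 (r = 0.87 to 0.91), and IRF9 with MORC4, FITM1 and TULP4 (r = 0.89 to 0.92). Besides KCNMB1 and PMAIP1, none of these genes was called between the breeds. The correlated values share the brightness and RNA of the same arrays, and these correlations were the highest of many.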

How the data were processed

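RNA from the whole blood of 21 pigs, 10 DD and 11 LW, was labelled with Cy3 and hybridised in 1 colour to a custom Agilent array on 3 chips. Images were read with Agilent Feature Extraction (version 10.7.3.1, per the submitters' processing notes), whose files hold the mean, background and processed signal of each spot as intensity, per the file headers. The authors removed 3 outlier arrays, corrected background by normexp and deposited log2 values after quantile normalization. Probes were matched by the gene name of the array design, which can be old.

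From the deposited log2 values, the 25% of probes with the lowest mean were left out and kept probes of a name averaged. Models were fitted with limma 3.58.1 (R 4.3.3) on breed and chip, with the sow as random block (duplicateCorrelation) and Benjamini-Hochberg adjustment at 0.05. Chip and litter came from the study's animal list. Single probes were fitted with the correlation estimated on genes. Litter means were compared by exact permutation. Precision is limited by the number of arrays. A simulation of the DD against LW comparison over 33326 genes changed 200 of them and drew noise independently for each pig, without litter effects. In it, 22 of 100 genes changed by 0.5 log2 units and 81 of 100 changed by 1 were called, with 5 false calls. The simulated fit called 108 genes and the real fit 7030, so the adjusted threshold was stricter in the simulation. These shares therefore do not carry over to the real fit. All 8 members, their probes, up to 4 genes of the smallest adjusted p per pathway list, the 3 genes most alike each member and listed markers were named; probes, pigs and the interferon-induced genes near or below 0 were chosen after their values were seen. Members, lists and named genes were chosen with earlier results of these data known. Alternatives covered background correction, scaling, filter, probe summary, naming, block, chip, litter means, brightness, variance model and left-out chips or animals. Figures were drawn with matplotlib.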

Additional observations from a re-analysis of the deposited data

Results flagged for a closer look

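IRF3 was unusually low in DD_16, at 9.3 on the chip-corrected log2 scale, where the next lowest DD pig had 10.04. The gap to the nearest pig was 0.603 of the whole range of the 10 DD pigs, above Dixon's 95% critical value. DD_16 stood apart in the same way on 2 IRF3 probes. A_72_P165194 had 6.026 against 7.436 in the next pig, and the GenBank-derived IRF3 probe had 7.855 against 9.262. The array-wide upstream minus downstream value of DD_16 was -0.22, and its part in these values was not tested. The check covered 26 genes and probes in DD pigs and found 3, all of IRF3 in DD_16, where chance gives about 1 in 20 for a single item. The 3 are not independent, because A_72_P165194 is part of the IRF3 mean. Its residuals also correlated with those of the GenBank-derived probe at r = 0.93. The 26 include duplicates of the same sequence, so their count cannot be set against chance. The 11 LW pigs were not checked. Without DD_16 the IRF3 difference was 0.22 (limma, adjusted p = 0.135).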

How the results depend on the processing

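The direction of all members but IRF1 held in every alternative run. IRF7 lost its call with the brightness covariate (0.40, limma adjusted p = 0.407), without chip 2 (0.48, adjusted p = 0.0752) and without chip 3 (0.46, adjusted p = 0.338), and kept it in the other 13. Leaving out single pigs gave 0.51 to 0.65, with adjusted p of 0.00669 to 0.0452. The number of IRF genes called higher was accordingly 0 in these 3 settings. It was 2 with a normexp offset of 50 and with the filter on probes well above background, and 1 to 2 with a pig left out, since IRF2 joined (adjusted p = 0.0312 and 0.0445; 0.041 without DD_16 and 0.0447 without LW_09). The IRF2 difference was smallest, at 0.14, with the highest probe in place of the mean. No alternative called an IRF lower. The difference of IRF1 turned to -0.078 without chip 1, -0.084 without chip 3 and -0.082 with the upstream minus downstream covariate (an alternative added after seeing the data), and ran from -0.034 to 0.16 with a pig left out, below 0 without DD_06 and without DD_11. The called IRF probes numbered 3, but 1 without the chip term, 0 with the brightness covariate and without chip 3, and 2 with the upstream minus downstream covariate, where O9025 had 0.46 (adjusted p = 0.0635). Without chip 2 they were 2 IRF2 probes, A_72_P151136 and O10723, in place of those of IRF7. With a pig left out they were 1 to 4, and 1 without DD_21, DD_23 or LW_18.

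The genes called in all, 7030, became 4348 with no filter, 1857 without the chip term, 713 with the brightness covariate, 507 without chip 3 and 3932 with the upstream minus downstream covariate. With a pig left out they ran from 2122 (without LW_18) to 11059 (without DD_06). They were 2952 without DD_21, 3986 without DD_23, 4502 without LW_05, 4530 without LW_12 and 3738 without LW_22. Scaling by the 75th percentile moved the median of all genes from -0.04 to 0.06 and the share of calls that were higher from 54.4% to 69.3%, and gave IRF7 0.84. That share was 34.4% without the chip term, 39.6% without chip 2, 43.8% without chip 3 and 44.2% with the brightness covariate. The sow block had a negative consensus correlation, -0.11, and without it 4835 genes were called and the adjusted p of IRF7 was 0.0243. The cause of these changes was not tested. No paired analysis was possible, because the DD and LW pigs came from separate litters and the design held no pairs across breeds.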

Other observations

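After removal of breed and chip means, IRF1, IRF2 and IRF3 correlated with each other at r = 0.58 to 0.63 over 21 pigs, while IRF7 correlated with IRF2 at 0.48 and with IRF3 at -0.04. IRF9, by the probe of that name, had r = -0.35 with IRF1 and r = -0.32 with IRF3. The second IRF9 probe, A_72_P223322, correlated with the IRF7 probe A_72_P065236 at r = 0.78. These are descriptions over the same arrays. IRF1, IRF2 and IRF3 are also the genes with the highest correlations, 0.53 to 0.69, with the array-wide upstream minus downstream value.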
